A study of Solanum lycopersicum with 48 samples.

Results

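Roots of the tomato cultivar Guozhen No.1 were compared with roots of the cultivar Guizhen No.1 at day 7 under low nitrogen. The comparison rests on 6 of the 48 RNA-seq libraries of the series, 3 per cultivar, chosen by the cultivar, organ, day and nitrogen level in their labels. Plants of every group grew hydroponically in a growth chamber in full-strength Hoagland solution, which held 1 mM nitrogen in the low nitrogen groups and 9 mM in the normal nitrogen groups. The other libraries used here are Guozhen and Guizhen roots at day 7 under normal nitrogen, roots of both cultivars at day 1 under either nitrogen level, and leaves of both cultivars. Each of these groups also had 3 libraries. Not stated in the labels are the event that starts the count of days, which cultivar copes better with low nitrogen, and whether the 3 libraries of a group came from separate plants. The p-values below therefore measure the spread between these samples.

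Roots take up nitrogen mostly as nitrate and ammonium, through transporters in the outer cell layers, and assimilate part of it into amino acids before it moves to the shoot. When nitrogen runs low, plants commonly change uptake, assimilation, root growth and defence at the level of transcripts, and cultivars of 1 species can differ widely in this response. A transcript can also differ between cultivars in every organ and condition, whatever the nitrogen supply. The deposited table names each gene by its tomato locus number or as a newly assembled gene. It does not pair these identifiers with gene names, so loci are described by their expression across organs, days and nitrogen levels and by their position. In a locus number, the digits between Solyc and g give the chromosome, and the digits after g rise along it.

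Expression is given in FPKM, which divides the fragments of a gene by its length and by the size of the library. Differences are of mean log2(FPKM + 1), Guozhen minus Guizhen, so that positive values mean higher in Guozhen, and the added 1 understates the fold of weak genes. A gene was called when its limma adjusted p was below 0.05. The table held 29898 genes, of which 28005 had a locus number and 1893 were newly assembled, and 20435 genes were tested in root. The 6 libraries had 18218 to 18398 genes at 1 FPKM or more. Summed FPKM ran from 623925 to 658923 in Guozhen and from 580500 to 612678 in Guizhen. Read numbers were not given. A relative depth was read as the most common ratio, gene by gene, of a reference root library to each library among values under 0.15 FPKM. It was 0.707 to 0.758 times the median root library in Guozhen and 0.871 to 1.15 times in Guizhen. Neither range overlaps between the cultivars, and the part of either measure in the results was not tested. The depth is a rough measure. In Guozhen roots at day 7 of normal nitrogen it was 2 for replicate 2, against 0.841 for replicates 1 and 3. Summed FPKM of 100 leaf-preferred loci was 104 to 210 in the 6 libraries and at least 31908 in every leaf library. In bulk roots, fewer cells of a type and less RNA per cell cannot be told apart.

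Guozhen and Guizhen roots differed in 2605 genes at day 7 of low nitrogen, 12.7% of those tested, of which 1075 (5.26%) were higher and 1530 (7.49%) lower in Guozhen. Most of these differences were small, with a median size of 0.60 on the log2 scale. At least 2-fold differences were seen in 485 genes (2.37%), and here the larger number was higher in Guozhen, 327 (1.6%) against 158 lower (0.773%). Differences of at least 3 on the log2 scale were seen in 13 genes higher and 2 genes lower in Guozhen. The excess of lower calls did not hold under another scaling: after median-of-ratios scaling, 1379 genes were higher and 1095 lower in Guozhen (55.7% of calls higher, against 41.3%). At least 2-fold calls were then 383 higher and 131 lower. The total rested on all 6 libraries and on the spread shared with the other root groups. It was 1126 without Guozhen replicate 1, 1197 without Guizhen replicate 1, and 156 when only the 6 libraries entered the fit.

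The 2605 genes were mostly genes in which Guozhen under low nitrogen stood apart from every other day 7 root. In 1830 of them (70.2%), all 3 Guozhen low nitrogen libraries lay outside the range of the other 9 day 7 root libraries, that is Guizhen low nitrogen and both cultivars at normal nitrogen. In 116 of them (4.45%), the 3 Guizhen low nitrogen libraries lay outside the range of their other 9. Over all genes tested these shares were 16.7% and 1.33%. This gap comes in large part with the choice of called genes. Lying outside the other 9 requires that the 3 and 3 low nitrogen libraries do not overlap. They did not overlap in 2518 called genes (96.7%) and in 5995 of all genes tested (29.3%). Of those 2518, 1830 and 116 lay outside for Guozhen and Guizhen, and of those 5995, 3407 and 271 did. On this base the Guizhen shares were nearly alike, and the Guozhen share was still larger among called genes. After median-of-ratios scaling of the values, the shares of the same 2605 genes were 67.3% and 4.41%. Those over all genes tested were not taken, so the scaled shares cannot be read as a result.

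Guizhen low nitrogen replicate 3 lay nearer to the normal nitrogen libraries than replicates 1 and 2. On the first principal component of the 12 day 7 root libraries, which carried 35.5% of the variance, the Guozhen low nitrogen libraries scored 51.2, 50.1 and 51.6. The Guizhen low nitrogen libraries scored 22.6, 30.8 and -11.5. The Guozhen normal nitrogen libraries scored -16.4, -29.1 and -33.1, and the Guizhen normal nitrogen libraries -34.7, -41.4 and -40.00. The low and normal nitrogen groups were thus separate in Guozhen, and separate in Guizhen by a smaller distance that replicate 3 narrowed. Without that replicate, 2020 genes were called. All 3 Guozhen low nitrogen libraries then stood outside the other 8 in 1840 of the 2605 genes (70.6%), and the 2 remaining Guizhen libraries stood outside their other 9 in 272 (10.4%). Fewer libraries make both conditions easier to meet. The shares over all genes tested were not taken here, so the rise from 4.45% cannot be read as a result.

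**Figure D1:**
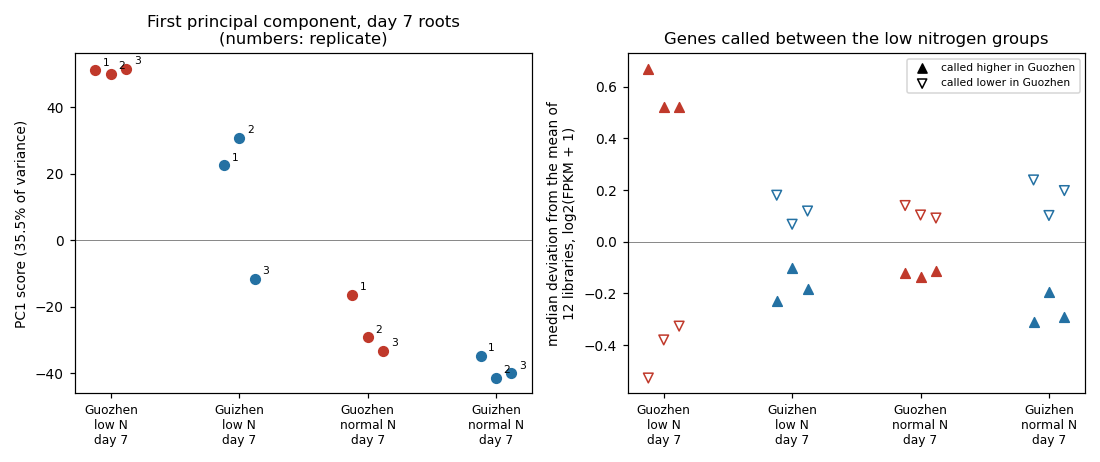
Day 7 root libraries, in 4 groups of 3. Left, score of each library on the first principal component of log2(FPKM + 1). Right, median deviation of the called genes from their mean over the 12 libraries, filled triangles for genes called higher in Guozhen under low nitrogen and open triangles for genes called lower. Deviations of the Guozhen low nitrogen libraries (0.52 to 0.67 and -0.53 to -0.33) lie farthest from 0, and those of Guizhen low nitrogen lie near the normal nitrogen groups. The genes were called between the 2 low nitrogen groups, so the separation of these groups follows from that choice. Over all genes tested the median deviation of a library ran from -0.048 to 0.041.

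Fewer genes were called in the other comparisons, by a margin that depended on the fit. At normal nitrogen, 189 root genes were called at day 7 (0.925%), and at low nitrogen 156 root genes were called at day 1 (0.763%). In leaves at day 7 of low nitrogen, 325 of 19815 genes were called (1.64%). When each comparison was fitted on its own 6 libraries, 156 genes were called at low nitrogen in day 7 roots, against 88 at normal nitrogen, 81 at day 1 and 83 in leaf. With array weights the low nitrogen count was 2530, against 978 at normal nitrogen and 559 at day 1. These comparisons share no library with the 6, although the 3 root fits share the estimate of spread. Of the 189 genes called at normal nitrogen, 130 (68.8%) were also called at low nitrogen in the same direction, which is 4.99% of the 2605. Of the 156 genes of day 1, 102 (65.4%) were also called at day 7 in the same direction, which is 3.92% of the 2605, and 1 in the opposite direction. Of 271 genes called in leaf and tested in both organs, 129 (47.6%) were called in root in the same direction, 5.68% of the 2273 root calls tested in leaf, and 3 in the opposite direction. The change of the cultivar difference between low and normal nitrogen was tested directly in day 7 roots and passed in 79 genes (0.387%), 36 with a larger (0.176%) and 43 with a smaller (0.21%) Guozhen minus Guizhen difference at low nitrogen. After median-of-ratios scaling these were 42 and 20. For most of the 2605 genes a call at low nitrogen alone therefore does not show that the cultivar difference changed with nitrogen.

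A set of 40 genes differed between the cultivars in the same direction in all 4 comparisons, 26 higher and 14 lower in Guozhen. Of these, 33 had a locus number and 7 were newly assembled, and 33 differed at least 2-fold in low nitrogen roots at day 7. When 1 of the 6 libraries was left out, 38 or 39 genes met the condition, and 17 did when each comparison was fitted on its own libraries alone. All of those 17 belonged to the 40.

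Solyc09g020190 was the extreme case among loci higher in Guozhen. It stood at 27.3, 38.6 and 34.3 FPKM in the Guozhen low nitrogen roots and was listed at 0 in all 3 Guizhen roots (limma adjusted p = 2.17e-05). At normal nitrogen on the same day the Guozhen values were 26.8, 33.8 and 33.6 FPKM, against 0 in all 3 Guizhen roots. The groups were widely separate at both nitrogen levels. Of the 24 Guizhen libraries of the series, 18 listed this locus at 0, whereas none of the 24 Guozhen libraries did. The other 6 Guizhen values included 12.6 and 0.14 FPKM in day 1 roots at normal nitrogen and 0.144, 0.0462 and 0.105 FPKM in day 1 roots at low nitrogen.

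Solyc09g011650 was the most abundant locus of this set. It read 285, 291 and 226 FPKM in the Guozhen low nitrogen roots, against 14.4, 17.4 and 23.0 FPKM in the Guizhen roots. The difference was 3.81 ± 0.20 (SE, adjusted p = 5.37e-10). All 3 Guozhen values were also above the Guozhen roots at normal nitrogen, which averaged 134 ± 3.06 FPKM, against 19.3 ± 4.13 FPKM in Guizhen roots at normal nitrogen (SD, n = 3 each). The difference was 2.75 ± 0.20 at normal nitrogen, 2.06 ± 0.20 in roots of day 1 and 1.12 ± 0.16 in leaves. The change of the cultivar difference with nitrogen, 1.07 ± 0.28, did not pass the test (adjusted p = 0.0761).

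Solyc09g005520 and Solyc10g085470 were likewise expressed in Guozhen and near 0 in Guizhen. Solyc09g005520 had 26.3, 10.9 and 15.2 FPKM in Guozhen, against 0.0775, 0 and 0.294 FPKM in Guizhen, a difference of 3.96 ± 0.44 (SE, adjusted p = 1.32e-05). Solyc10g085470 had 14.3, 17.7 and 12.6 FPKM in Guozhen, against 0.42, 0.812 and 0 FPKM in Guizhen, a difference of 3.52 ± 0.36 (adjusted p = 5.01e-06). Neither pair of groups overlapped. In leaves at day 7 of low nitrogen the differences were 4.10 ± 0.23 and 2.80 ± 0.39.

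Lower in Guozhen everywhere were Solyc02g077940 and its neighbour by number, Solyc02g077930. Solyc02g077940 had 0.0783, 0 and 0 FPKM in Guozhen, against 14.7, 9.55 and 9.76 FPKM in Guizhen, a difference of -3.56 ± 0.14 (SE, adjusted p = 5.12e-12). Solyc02g077930 had 0.113, 0 and 0 FPKM in Guozhen, against 7.84, 4.15 and 5.15 FPKM in Guizhen, a difference of -2.66 ± 0.17 (adjusted p = 6.82e-09). Both loci were thus nearly undetected in Guozhen, and they were listed at 0 in 19 and 18 of its 24 libraries and in none of the 24 Guizhen libraries.

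Solyc10g085040 showed the same direction in both organs. It had 0.0199, 0.0276 and 0.68 FPKM in the Guozhen roots, against 10.8, 10.2 and 8.48 FPKM in the Guizhen roots, a difference of -3.16 ± 0.29 (SE, adjusted p = 1.01e-06). In leaves at day 7 of low nitrogen it averaged 0.0488 ± 0.0498 FPKM in Guozhen and 30.3 ± 6.39 FPKM in Guizhen (SD, n = 3 each), a difference of -4.88 ± 0.32. Its libraries did not overlap in any of the 4 comparisons.

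**Figure D2:**
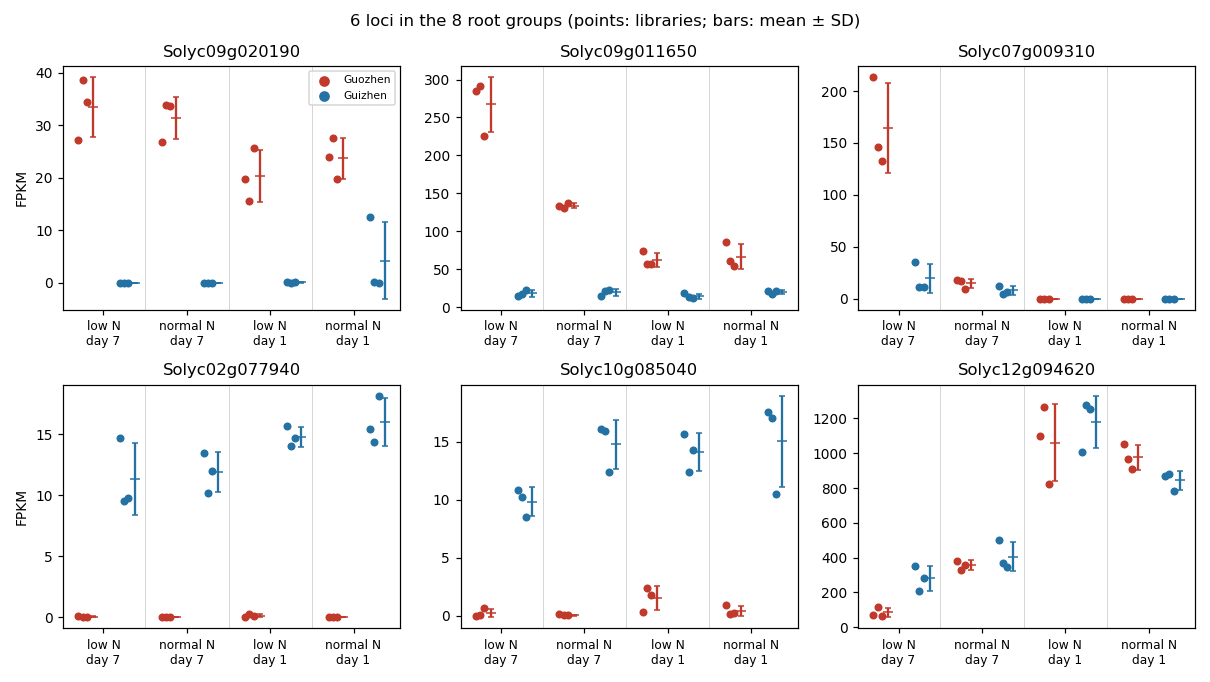
FPKM of 6 loci in the 8 root groups, points for libraries and bars for the mean ± SD of 3. Solyc09g020190, Solyc09g011650, Solyc02g077940 and Solyc10g085040 have no overlap between the cultivars in any of the 4 pairs, although 1 Guizhen library of Solyc09g020190 reached 12.6 FPKM. Solyc07g009310 and Solyc12g094620 separate them at day 7 of low nitrogen, with Guozhen at 132 to 214 and 65.9 to 117 FPKM, against 11.6 to 35.8 and 208 to 353 FPKM in Guizhen.

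A few genes were expressed in 1 cultivar and listed at 0 in the other. At day 7 of low nitrogen, 18 genes were listed at 0 in all 3 Guizhen roots and had at least 1 FPKM in all 3 Guozhen roots, and all 18 were called. The opposite pattern was seen in 5 genes, of which 4 were called. Both counts are out of the 20435 genes tested. The genes were picked by the same 6 libraries that gave the calls, so being called adds no support. Relative depth was higher in the Guizhen libraries, and its part in the zeros of either cultivar was not tested. Such tables can list 0 where an estimate failed, so these values are listed zeros and not proof of absence.

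Solyc10g005120 had 7.07, 6.24 and 5.36 FPKM in Guozhen and was listed at 0 in 23 of the 24 Guizhen libraries of the series. Solyc02g005050 had 5.30, 7.03 and 6.85 FPKM in Guozhen and was at 0 in 19 of the 24 Guizhen libraries. Solyc12g035620 had only 1.57, 1.42 and 1.18 FPKM in Guozhen, but all 24 Guizhen libraries listed it at 0. No Guozhen library listed any of these 3 loci at 0.

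In the opposite direction, Solyc06g008370 was listed at 0 in the 3 Guozhen roots and had 3.16, 5.65 and 4.16 FPKM in the Guizhen roots (adjusted p = 9.48e-07). Over the series it was at 0 in 22 of 24 Guozhen libraries and in none of the 24 Guizhen libraries. Solyc04g077610, the other locus of this kind, had 1.38, 11.5 and 12.3 FPKM in Guizhen and was not called (adjusted p = 0.0855). It was also at 0 in 11 of the 24 Guizhen libraries, so its zeros did not follow the cultivar as closely. The remaining 3 of the 5 were newly assembled genes, all called.

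By the size of the log2 difference, 24 loci were selected, 12 in each direction, among called loci with no overlap between the 3 and 3 libraries and at least 5 FPKM in the higher group (2022 loci met this). Of the 24, 9 were also called at normal nitrogen in the same direction, 5 higher and 4 lower in Guozhen, and 7 belonged to the 40 described above. The other 15 were called at low nitrogen on day 7 and did not pass the test at normal nitrogen.

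Solyc07g009310 was 1 of these. It had 214, 146 and 132 FPKM in Guozhen low nitrogen roots, against 35.8, 11.7 and 11.6 FPKM in Guizhen low nitrogen roots. The difference was 3.16 ± 0.34 (SE, adjusted p = 9.7e-06). At normal nitrogen on day 7 it averaged 14.8 ± 4.60 FPKM in Guozhen and 7.92 ± 4.08 FPKM in Guizhen (SD, n = 3 each), and that difference, 0.88 ± 0.34, did not pass the test (adjusted p = 0.306). The low nitrogen roots of Guozhen were thus far above the other day 7 roots, while the 2 normal nitrogen groups overlapped. It was listed at 0 in all low nitrogen roots of day 1 and in all leaves of day 7.

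Solyc01g110830 and Solyc08g048390 were close to 0 in Guizhen under low nitrogen. Solyc01g110830 had 20.0, 11.3 and 9.25 FPKM in Guozhen, against 0.0828, 0.158 and 0.113 FPKM in Guizhen, a difference of 3.63 ± 0.44 (SE, adjusted p = 5.07e-05). Solyc08g048390 had 5.54, 29.8 and 27.2 FPKM in Guozhen, against 0.0828, 0.121 and 0.122 FPKM in Guizhen, a difference of 4.01 ± 0.64 (adjusted p = 0.000763). The libraries were far apart between the cultivars, but Guozhen replicate 1 was well below the other two for Solyc08g048390. At normal nitrogen on day 7 the differences were 0.83 ± 0.44 and 0.00 ± 0.64. Solyc01g110830 then had 6.02, 0.056 and 0.141 FPKM in Guozhen, with replicate 1 standing apart. In Guizhen roots at day 1 of normal nitrogen, Solyc08g048390 had 9.56, 5e-05 and 10.6 FPKM. The change of the 2 cultivar differences with nitrogen at day 7, 2.80 ± 0.63 and 4.01 ± 0.90, did not pass the test (adjusted p = 0.0527 for both).

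Solyc09g005410 was a root locus that differed at both nitrogen levels. It had 22, 22.6 and 30.2 FPKM in Guozhen low nitrogen roots, against 1.19, 0.0619 and 2.84 FPKM in Guizhen, a difference of 3.63 ± 0.44 (SE, adjusted p = 4.57e-05). At normal nitrogen the difference was 2.58 ± 0.44 (adjusted p = 0.00338), and in day 1 roots 1.81 ± 0.44 (adjusted p = 0.0729). It read at most 0.0548 FPKM in the 6 low nitrogen leaf libraries of day 7.

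Solyc01g056370 and Solyc07g008710 were also among the 12 higher loci. Solyc01g056370 had 7.62, 9.15 and 6.92 FPKM in Guozhen and was listed at 0 in the 3 Guizhen roots (adjusted p = 0.00171). Solyc07g008710 had 37.5, 8.97 and 14.9 FPKM in Guozhen, against 0.663, 0.718 and 3.76 FPKM in Guizhen, a difference of 2.94 ± 0.61 (SE, adjusted p = 0.00476). Guozhen replicate 1 stood above the other two, and with only the 6 libraries in the fit its adjusted p was 0.0812. In day 7 leaves of low nitrogen Solyc07g008710 averaged 31.6 ± 6.48 FPKM in Guozhen and 59.9 ± 9.43 FPKM in Guizhen (SD, n = 3 each), a difference of -0.91 ± 0.36 that did not pass the test (adjusted p = 0.204).

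**Figure D3:**
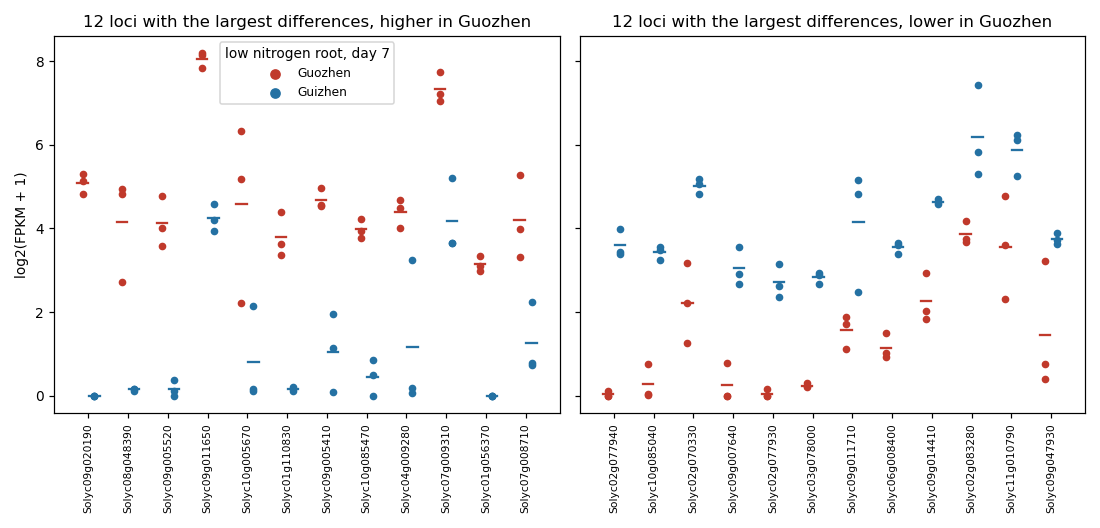
The 24 loci with the largest differences at day 7 of low nitrogen, log2(FPKM + 1) of each library, with Guozhen left of Guizhen at each locus and a bar at the group mean. Loci higher in Guozhen are on the left and loci lower on the right. For no locus do the 3 and 3 libraries overlap, which was a condition of the choice.

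Among loci lower in Guozhen, Solyc09g011710 read lower in Guozhen roots at day 7 of low nitrogen than in the other Guozhen root groups. It had 2.70, 2.27 and 1.17 FPKM in Guozhen, against 34.6, 4.58 and 27.3 FPKM in Guizhen. Guizhen replicate 2 lay close to the Guozhen values. The difference was -2.58 ± 0.46 (SE, adjusted p = 0.00169), and 0.119 was its adjusted p with only the 6 libraries. Guozhen roots at normal nitrogen averaged 20.8 ± 8.12 FPKM, against 34.7 ± 4.57 FPKM in Guizhen (SD, n = 3 each), a difference of -0.77 ± 0.46 (adjusted p = 0.553). The change with nitrogen, -1.81 ± 0.65, did not pass the test (adjusted p = 0.162).

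Solyc06g008400 was lower in Guozhen roots and higher in Guozhen leaves. It had 0.908, 1.01 and 1.85 FPKM in Guozhen low nitrogen roots, against 11.2, 9.50 and 11.5 FPKM in Guizhen, a difference of -2.40 ± 0.17 (SE, adjusted p = 2.26e-08). In leaves on the same day and nitrogen level it averaged 0.620 ± 0.065 FPKM in Guozhen and 0.0250 ± 0.0122 FPKM in Guizhen (SD, n = 3 each). That difference was 0.66 ± 0.13 (adjusted p = 0.0122), at levels well below those of root.

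Solyc09g014410 and Solyc03g078000 were steady in Guizhen low nitrogen roots and lower in Guozhen. Solyc09g014410 had 6.59, 3.08 and 2.55 FPKM in Guozhen, against 25.1, 22.9 and 23.8 FPKM in Guizhen, a difference of -2.38 ± 0.54 (SE, adjusted p = 0.00853). Solyc03g078000 had 0.15, 0.225 and 0.176 FPKM in Guozhen, against 6.40, 6.59 and 5.39 FPKM in Guizhen, a difference of -2.59 ± 0.50 (adjusted p = 0.00306). The 2 loci differed in leaf. Solyc09g014410 was also lower in Guozhen leaves (-2.54 ± 0.38, adjusted p = 0.000752). Solyc03g078000 was expressed in leaves of both, at 69.0 ± 18.7 FPKM in Guozhen and 54.9 ± 5.56 FPKM in Guizhen (SD, n = 3 each; adjusted p = 0.676).

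Solyc02g083280 and Solyc11g010790 were expressed in both cultivars at moderate levels. Solyc02g083280 had 11.8, 17.0 and 12.4 FPKM in Guozhen, against 38.7, 56.0 and 171 FPKM in Guizhen, a difference of -2.33 ± 0.55 (SE, adjusted p = 0.0101). Solyc11g010790 had 11.1, 3.94 and 26.4 FPKM in Guozhen, against 68.7, 73.9 and 37.3 FPKM in Guizhen, a difference of -2.31 ± 0.53 (adjusted p = 0.00903). The spread within a cultivar was wide for both, and neither was called with only the 6 libraries (adjusted p of 0.0879 and 0.117).

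In 5 of the 24 loci the call ended when a single library was left out. Solyc10g005670 had 79.2, 35.3 and 3.67 FPKM in Guozhen, against 0.0846, 0.109 and 3.44 FPKM in Guizhen, so that Guozhen replicate 3 and Guizhen replicate 3 nearly met (3.77 ± 1.16 SE, adjusted p = 0.0385). Its call was lost without replicate 1 or 2 of either cultivar (adjusted p 0.0996 to 0.179). Solyc04g009280 had 21.4, 24.5 and 15.1 FPKM in Guozhen, against 0.0411, 0.139 and 8.48 FPKM in Guizhen, with Guizhen replicate 3 standing apart (3.23 ± 0.94, adjusted p = 0.0298). It too was lost without replicate 1 or 2 of either cultivar (0.0754 to 0.132).

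The other three were lower in Guozhen. Solyc02g070330 had 3.62, 7.99 and 1.40 FPKM in Guozhen, against 27.3, 32.5 and 35.5 FPKM in Guizhen (-2.81 ± 0.76 SE, adjusted p = 0.0212), and was lost without replicate 1 or 3 of either cultivar (0.0535 to 0.0753). Solyc09g007640 had 0.727, 0 and 0 FPKM in Guozhen, against 5.42, 6.49 and 10.8 FPKM in Guizhen (-2.79 ± 0.74, adjusted p = 0.0193), and was lost without Guozhen replicate 2 or Guizhen replicate 3 (0.0541 and 0.0617). Solyc09g047930 had 8.36, 0.327 and 0.678 FPKM in Guozhen, against 11.5, 13.8 and 12.2 FPKM in Guizhen (-2.29 ± 0.63, adjusted p = 0.0242). Its Guozhen replicate 1 was near the Guizhen level, and the call was lost without Guozhen replicate 2 or 3 or any 1 Guizhen library (0.0522 to 0.102). At day 1 of low nitrogen the same locus was higher in Guozhen, at 8.68 ± 1.88 FPKM, against 0.126 ± 0.0118 FPKM in Guizhen (SD, n = 3 each; 3.09 ± 0.63, adjusted p = 0.0179).

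Some of the largest differences belonged to loci that were near 0 in 1 library and clearly expressed in another of the same group. Of the 24 loci, 8 (33.3%) had, in some group of 3 root libraries, a value under 0.5 FPKM and another of at least 5 FPKM. Among the 2022 loci from which the 24 were drawn, 12 had this (0.593%). The 24 were chosen for large differences, which favours loci near 0 in some libraries, so part of this gap comes with that choice. Within the 24, such a pair of values was seen in the 6 libraries themselves for Solyc04g009280 and Solyc09g047930. In Guizhen roots at day 7 of normal nitrogen, Solyc10g005670 had 59.4, 0.126 and 0.139 FPKM, and Solyc01g056370 had 0, 10.9 and 0 FPKM. These values were not shared by the 3 libraries of a group, and whether they are failed estimates was not tested.

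**Figure D4:**
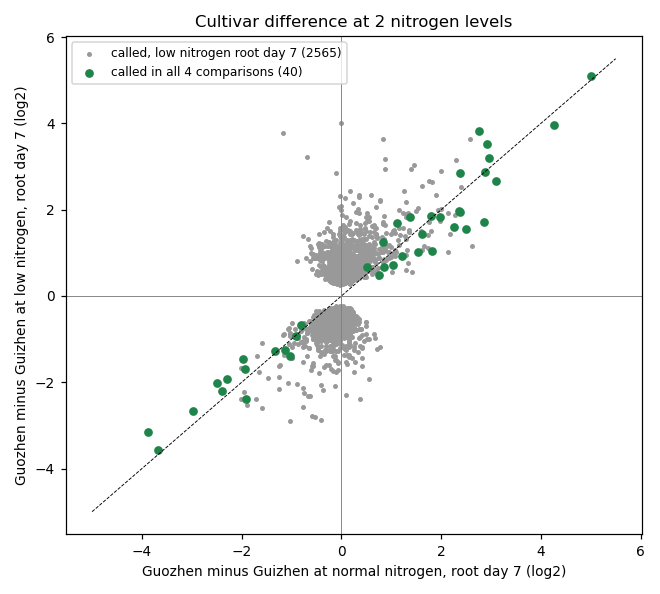
Difference between cultivars of each of the 2605 called genes in day 7 roots, log2 scale, at low nitrogen (vertical) and at normal nitrogen (horizontal), with the 40 genes called in all 4 comparisons in green. The dashed line marks equal differences. The green points run along it, while most grey points lie near 0 on the horizontal axis. Green genes had to be called in the same direction at both levels, and grey genes only at low nitrogen. This contrast follows in part from that choice. Of the 2605, 130 were called at both levels.

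The share of called loci differed between chromosomes. Chromosome 9 had the highest share of its tested loci called, 271 of 1446 (18.7%), and chromosome 8 the lowest of the 12, 137 of 1417 (9.67%). The same chromosome led where the cultivars were compared in other libraries: 46 loci of chromosome 9 were called at normal nitrogen on day 7 (3.18%) and 44 at low nitrogen on day 1 (3.04%). Chromosome 6 followed with 26 (1.48%) and 22 (1.26%). Among the newly assembled genes, which are separate from the numbered loci, 88 of 564 tested were called (15.6%), 58 higher and 30 lower in Guozhen. On chromosome 9, 15 of 35 were called (42.9%). Of the 33 numbered loci that differed in all 4 comparisons, 12 lay on chromosome 9 and 7 on chromosome 6. On chromosome 9 were also 8 of the 24 loci with the largest differences. As numbered loci, chromosome 9 held 1446 and chromosome 6 held 1752 of the 20435 genes tested. Of the 2605 genes called they held 271 and 236.

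Along the chromosomes, 3 stretches of 50 neighbouring tested loci had the highest shares of called loci, against a median of 12% over all 19135 such stretches and a range of 4% to 22% from the 5th to the 95th percentile. They were chosen by this share, which is therefore a description. The first ran from Solyc06g008030 to Solyc06g008810 on chromosome 6 and held 21 called loci (42%, 95% Wilson interval 29.4 to 55.8), 5 higher and 16 lower in Guozhen. The second ran from Solyc09g011470 to Solyc09g013130 and held 20 (40%, 27.6 to 53.8), 8 higher and 12 lower. The third ran from Solyc09g020110 to Solyc09g047920 and held 20 (40%), 9 higher and 11 lower. The intervals cover counting only, and neighbouring loci need not be independent. Without Guozhen replicate 1 the shares were 26%, 26% and 20%, with 1126 genes called in all, against 2605 in the main fit. Without Guizhen replicate 1 each share was 28%, with 1197 genes called in all. With only the 6 libraries in the fit the shares were 14%, 8% and 4%, with 156 of 20435 genes called in all. The median over all stretches was not taken under these settings, so these shares are not comparable with the 12%.

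The same stretches also held called loci in the other comparisons, which contrast other libraries but, in root, share the estimate of spread with the calls that chose the stretches. The chromosome 6 stretch held 9 called loci at normal nitrogen on day 7, 10 at day 1 of low nitrogen and 12 of 49 in leaf. The stretch from Solyc09g011470 held 6, 7 and 12 of 48, and the stretch from Solyc09g020110 held 5, 3 and 6 of 44. Over all genes tested the shares called in these comparisons were 0.925%, 0.763% and 1.64%. At least 2-fold differences at day 7 of low nitrogen were seen in 11 of 21, 8 of 20 and 5 of 20 called loci. Of all calls of that comparison, 485 of 2605 were at least 2-fold. The stretches were chosen by calls in this same comparison, so the 2.37% of all genes tested is not a fair background for them.

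In the chromosome 6 stretch the leading loci were lower in Guozhen. Besides Solyc06g008400 and Solyc06g008370, described above, Solyc06g008520 had 9.14, 10.4 and 8.53 FPKM in Guozhen, against 36.6, 39.96 and 47.2 FPKM in Guizhen. The difference was -2.02 ± 0.18 (SE, adjusted p = 8.63e-07) and was seen again at normal nitrogen (-2.50 ± 0.18), at day 1 (-1.38 ± 0.18) and in leaf (-2.30 ± 0.17). Of the 40 genes that differed in all 4 comparisons, 5 lay in this stretch. Solyc06g008480, 1 of the 5, ran the other way, with 3.05, 3.36 and 2.40 FPKM in Guozhen, against 0.0823, 0.0833 and 0.148 FPKM in Guizhen (1.83 ± 0.12, adjusted p = 2.19e-08).

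In the stretch from Solyc09g011470, neighbouring loci moved in opposite directions. Next to Solyc09g011650, which was higher in Guozhen, Solyc09g011640 had 2.39, 2.41 and 0 FPKM in Guozhen, against 9.45, 8.78 and 9.89 FPKM in Guizhen (-2.20 ± 0.35 SE, adjusted p = 0.000883). Solyc09g011760 was abundant in both, with 33.9, 31.6 and 34.3 FPKM in Guozhen, against 112, 131 and 147 FPKM in Guizhen (-1.92 ± 0.13, adjusted p = 2.26e-08). Solyc09g011510 was higher in Guozhen, with 28.3, 33.8 and 51.3 FPKM, against 4.05, 5.99 and 5.03 FPKM in Guizhen (2.66 ± 0.28, adjusted p = 7.19e-06). At day 1 of low nitrogen Solyc09g011510 stood higher in both cultivars, at 187 ± 31.0 FPKM in Guozhen and 13.9 ± 2.31 FPKM in Guizhen (SD, n = 3 each). None of these loci overlapped between the cultivars at day 7 of low nitrogen.

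The stretch from Solyc09g020110 began near Solyc09g020190 and ended at Solyc09g047920. Solyc09g047920 had 2.22, 3.56 and 2.53 FPKM in Guozhen, against 0.373, 0.107 and 0 FPKM in Guizhen, a difference of 1.70 ± 0.20 (SE, adjusted p = 2.38e-05). Solyc09g037130 had 0.934, 3.31 and 3.21 FPKM in Guozhen, against 0, 0.00853 and 0 FPKM in Guizhen (1.71 ± 0.26, adjusted p = 0.000479). Both were weakly expressed and separate between the cultivars. Solyc09g037130 was not called when only the 6 libraries entered the fit (adjusted p = 0.0711). At normal nitrogen their differences were 1.11 ± 0.20 and 1.75 ± 0.26, both called.

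**Figure D5:**
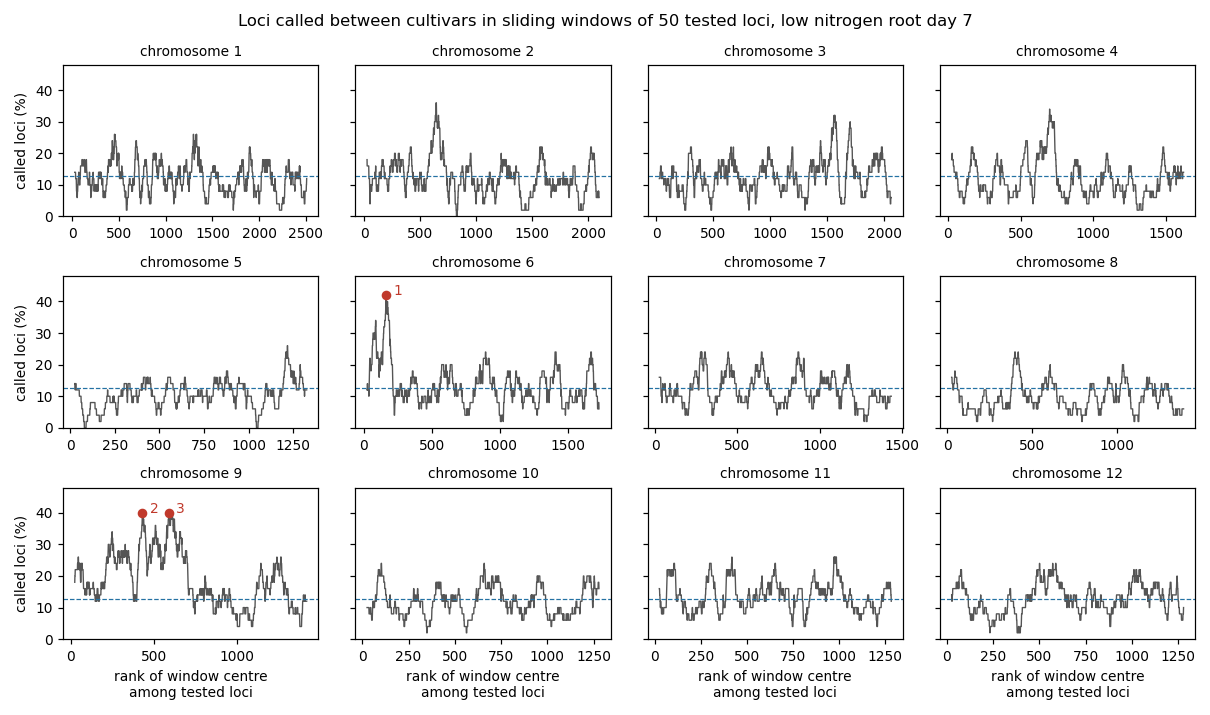
Share of called loci in sliding stretches of 50 tested loci along each of the 12 chromosomes, day 7 roots at low nitrogen. The dashed line is the share over all genes tested, 12.7%. Numbered points mark the 3 stretches described, at 42% on chromosome 6 and at 40% at 2 places on chromosome 9.

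The 7 newly assembled genes that differed in all 4 comparisons lay on chromosomes 3, 4, 7, 8 and 9. Genes 9815 and 9846 were those on chromosome 9, which held 35 of the 564 newly assembled genes tested. The table gives the positions of the 7, on a genome build not given in the sources used here. Newly assembled gene 8392, on chromosome 8 from 14588210 to 14593149, had 5.60, 6.64 and 4.10 FPKM in Guozhen and was listed at 0 in all 24 Guizhen libraries. Newly assembled gene 7913, on chromosome 7 from 52784333 to 52791400, had 8.44, 12.6 and 8.21 FPKM in Guozhen, against 0.556, 0 and 0 FPKM in Guizhen. On chromosome 9, newly assembled gene 9815, from 42006477 to 42010046, was listed at 0 in the 3 Guozhen roots and had 2.18, 3.08 and 1.66 FPKM in the Guizhen roots. For each of these the 3 and 3 libraries were separate.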

How the data were processed

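The values used are FPKM for 29898 genes in 48 libraries, deposited by the authors as 1 table. HISAT2 and StringTie are named in the submitters' processing notes. Not given in the sources used here are their versions, the genome build and the strand setting, so antisense or overlapping genes cannot be told apart. Tiangen extraction and NEBNext Ultra library kits were used, per the labels. Groups were taken from the sample titles. The number of reads was not given, so the counting error of a value is unknown.

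From these values, log2(FPKM + 1) was fitted with limma 3.58.1 in R 4.3.3 (variance trend, 1 mean per group) to the 24 root libraries, over genes that reached 1 FPKM in 3 or more of them. Leaves were fitted alike on their 24 libraries. Benjamini-Hochberg adjustment ran over all genes tested, with calls below 0.05. The fit was tested on simulated data. Loci were named by size (12 in each direction, at least 5 FPKM in the higher group, no overlap), by change with nitrogen (4 in each direction) and by stretch (up to 3 each). Loci at 0, those of the 40 and newly assembled genes were chosen after their values were seen. Lists of loci by function were drawn up but not used, since the supplied tomato gene table shares no identifier with the deposited table. The comparison, members and lists were chosen with earlier results of these data known. Alternatives tried were a pseudocount of 0.1, no filter, median-of-ratios scaling, only the libraries compared, a replicate block, array weights, an adjusted p below 0.01, stretches of 100 loci, and leaving out each library. Plots used matplotlib 3.10.9 in Python 3.11.15.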

Additional observations from a re-analysis of the deposited data

Results flagged for a closer look

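The difference between the cultivars in day 7 roots itself differed between low and normal nitrogen in 79 genes (0.387% of those tested; limma interaction term), 36 with a larger and 43 with a smaller Guozhen minus Guizhen difference at low nitrogen. After median-of-ratios scaling 42 were larger and 20 smaller. Unadjusted p was below 0.05 in 3517 genes. The count rested on single libraries. Without Guozhen replicate 1, 2 or 3 of low nitrogen it was 10, 45 or 304, and without Guozhen replicate 1, 2 or 3 of normal nitrogen it was 42, 13 or 10. Without Guizhen replicate 1, 2 or 3 of low nitrogen it was 17, 85 or 123. Without Guizhen replicate 1, 2 or 3 of normal nitrogen it was 115, 7 or 38.

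Among called loci with a mean of at least 5 FPKM in 1 of the 4 groups, the 4 largest changes of each sign are given, as the difference at low nitrogen minus that at normal nitrogen on the log2 scale. All 8 lost their call when only the 12 libraries entered the fit (adjusted p 0.129 to 0.174), and 6 lost it with a pseudocount of 0.1 (0.0525 to 0.0733), all but Solyc02g093740 and Solyc06g074120. Solyc12g035130 also lost it after median-of-ratios scaling (0.0621). Solyc07g009310, described above, changed by 2.29 ± 0.48 (SE, adjusted p = 0.0472). It lost its call without any 1 of the 12 libraries other than Guozhen low nitrogen replicate 3 and Guizhen low nitrogen replicate 1 (0.0542 to 0.14).

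Solyc12g098770 changed by 2.16 ± 0.42 (SE, adjusted p = 0.0362). It had 232, 189 and 203 FPKM in Guozhen and 53.0, 89.4 and 101 FPKM in Guizhen at low nitrogen, against 71.6, 71.5 and 62.2 FPKM in Guozhen and 106, 149 and 102 FPKM in Guizhen at normal nitrogen. Guozhen was thus the higher cultivar at low nitrogen (1.39 ± 0.30, adjusted p = 0.00611), and the normal nitrogen difference of -0.77 ± 0.30 did not pass the test (adjusted p = 0.308). The call was lost without Guozhen low nitrogen replicate 1 or 2, any 1 Guozhen normal nitrogen library, Guizhen low nitrogen replicate 1 or Guizhen normal nitrogen replicate 2 or 3 (0.0532 to 0.119).

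Solyc01g110180 changed by 2.10 ± 0.30 (SE, adjusted p = 0.0077) and kept its call whichever of the 12 libraries was left out, but not with only the 12 libraries (0.132) or a pseudocount of 0.1 (0.0585). It had 5.27, 6.61 and 6.11 FPKM in Guozhen and 0.174, 1.12 and 0.912 FPKM in Guizhen at low nitrogen, against 3.16, 4.78 and 2.61 FPKM in Guozhen and 3.19, 4.78 and 2.99 FPKM in Guizhen at normal nitrogen. The cultivars overlapped at normal nitrogen and were separate at low nitrogen, where Guizhen was also below its own normal nitrogen values.

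Solyc02g093740 changed by 1.79 ± 0.30 (SE, adjusted p = 0.019). It averaged 47.2 ± 10.5 FPKM in Guozhen and 21.0 ± 6.90 FPKM in Guizhen at low nitrogen, against 12.3 ± 2.02 FPKM in Guozhen and 19.6 ± 3.51 FPKM in Guizhen at normal nitrogen (SD, n = 3 each). Guizhen differed little between the nitrogen levels. The call was lost without Guozhen low nitrogen replicate 1, Guozhen normal nitrogen replicate 3 or Guizhen normal nitrogen replicate 2 (0.0559 to 0.07).

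The 4 loci with the largest negative changes were all lower in Guozhen at low nitrogen. Solyc06g006080 changed by -1.62 ± 0.34 (SE, adjusted p = 0.0472), with 19.8 ± 2.60 FPKM in Guozhen and 48.2 ± 14.7 FPKM in Guizhen at low nitrogen (SD, n = 3 each). Its call was lost without any 1 of Guozhen low nitrogen replicates 1 and 2, Guizhen low nitrogen replicates 1 and 2, Guizhen normal nitrogen replicates 2 and 3 and the Guozhen normal nitrogen libraries (0.0586 to 0.14). Solyc12g094620 changed by -1.57 ± 0.31 (SE, adjusted p = 0.0362), with 71.0, 117 and 65.9 FPKM in Guozhen, against 353, 208 and 284 FPKM in Guizhen at low nitrogen. At normal nitrogen it averaged 356 ± 28.3 FPKM in Guozhen and 405 ± 83.7 FPKM in Guizhen. Its call was lost without replicate 1 of either low nitrogen group, any 1 Guozhen normal nitrogen library or Guizhen normal nitrogen replicate 2 or 3 (0.0625 to 0.12).

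Solyc06g074120 changed by -1.52 ± 0.29 (SE, adjusted p = 0.0333), with 3.51 ± 1.45 FPKM in Guozhen and 7.81 ± 1.53 FPKM in Guizhen at low nitrogen (SD, n = 3 each). Its call was lost without replicate 1 of either low nitrogen group, Guozhen normal nitrogen replicate 1 or 3 or Guizhen normal nitrogen replicate 2 or 3 (0.0549 to 0.106). Solyc12g035130 changed by -1.50 ± 0.32 (SE, adjusted p = 0.0489), with 335 ± 57.5 FPKM in Guozhen and 788 ± 41.3 FPKM in Guizhen at low nitrogen. Its call was lost without any 1 of the 12 libraries other than Guozhen low nitrogen replicate 3 and Guizhen normal nitrogen replicate 1 (0.0524 to 0.14).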

How the results depend on the processing

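No named locus changed the sign of its difference under any alternative run, but the balance of higher and lower calls turned. In low nitrogen roots of day 7 it was 1075 higher and 1530 lower, against 1379 and 1095 after median-of-ratios scaling and 114 and 42 with only the 6 libraries. With an adjusted p below 0.01, the calls were 854 in low nitrogen roots of day 7 (270 of them at least 2-fold), 99 at normal nitrogen, 126 in leaf and 5 for the change with nitrogen, and the 3 stretches had 26%, 26% and 22%. With only the libraries compared in the fit, they were 156 (129 at least 2-fold), 88 at normal nitrogen, 81 at day 1, 83 in leaf and 17 in all 4 comparisons, and the stretches had 14%, 8% and 4%. The change with nitrogen then gave 0 limma calls, with 3120 genes at unadjusted p below 0.05. Array weights gave 978 calls at normal nitrogen, 559 at day 1 and 503 for the change with nitrogen, which gave 173 with no filter on low values and 21 with a pseudocount of 0.1. Leaving out 1 library gave 1126 to 2535 calls, 302 to 570 of at least 2-fold, 38 to 39 in all 4 comparisons and 7 to 304 for the change with nitrogen. The shares of the stretches were then 26% to 42%, 26% to 40% and 20% to 32%. The cause of these shifts was not tested. Of the 24 loci named by size, 15 kept their call throughout and 9 lost it somewhere, 8 of them with only the 6 libraries. The tests of at least 2-fold calls, of the 40 genes and of the stretches under alternatives were added after the data were seen.

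Replicate numbers share only a number: deviations of same-numbered libraries of the 2 cultivars correlated at -0.24, -0.06 and -0.13. A replicate block gave 2334 calls in low nitrogen roots of day 7 and 39 for the change with nitrogen (21 larger and 18 smaller). It ended the calls of Solyc12g098770, Solyc06g006080 and Solyc12g035130 for that change (adjusted p = 0.05002, 0.0681 and 0.0706), and no other call of a named locus.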
